A study of Mus musculus with 17 samples.

Results

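The 10 genes described here encode proteins of the neuromuscular junction, the synapse at which a motor nerve drives a skeletal myofiber: the muscle acetylcholine receptor subunits Chrna1, Chrnb1, Chrnd, Chrne and Chrng, the agrin receptor Lrp4, the kinase Musk, its activator Dok7, the receptor scaffold Rapsn and the adhesion molecule Ncam1. They were taken by symbol, 1 row each, from a table of 47643 genes, and 9 of the 10 passed the filter used for testing, a level of at least 1 TPM, a unit corrected for transcript length and library total, in at least 3 mice. The samples were diaphragms of 17 mice, all male C57BL/6J aged 4 months, and each gave 1 library. Control (n = 5) and Control + rFibcd1 (n = 5) mice bore no tumor. LLC (n = 3) and LLC + rFibcd1 (n = 4) mice bore Lewis lung carcinoma, a mouse tumor line placed under the skin. rFibcd1 is a recombinant piece of mouse Fibcd1, a protein secreted by muscle, given into the peritoneal cavity, and the Control and LLC mice received the vehicle with albumin. Every mouse was thus injected. Tendon had been cut away before RNA was taken.

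At the junction the nerve releases agrin, which binds Lrp4 on the myofiber. Lrp4 then activates Musk, which needs Dok7 for full activity, and the signal gathers acetylcholine receptors under the nerve with the help of Rapsn. The receptor is a ring of subunits, in which the fetal γ subunit (Chrng) is replaced by the adult ε subunit (Chrne) after birth. The nuclei beneath the synapse make most of these transcripts. When a muscle loses its nerve, the rest of the myofiber begins to make receptor subunits, Musk and Ncam1 as well, Chrng returns, and Myog, Runx1 and the embryonic myosins increase. The set is therefore a standard readout of innervation in muscle, and the comparison asks whether it differed with the tumor or with rFibcd1.

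Depth as recovered from the TPM steps was 50700000 to 54600000 reads per library, and mitochondrially encoded genes took 45.9% to 48.4% of TPM in Control and 41.3% to 44.3% in LLC. They took 45.4% to 50.4% in Control + rFibcd1 and 43.7% to 46.5% in LLC + rFibcd1, which overlapped. Myofiber structure markers dominated every library, at a summed 53798 to 68568 TPM over 15 genes, which is what the tissue label says. These markers were lower with a tumor (62328 to 67205 TPM in Control, 53798 to 56744 in LLC, 60591 to 68568 in Control + rFibcd1 and 55018 to 63793 in LLC + rFibcd1, the last pair overlapping, with 8 of 15 lower and 0 higher in tumor-bearing against tumor-free mice, where 5.98% of all genes were lower), while summed B cell markers were higher (2.80 to 109 TPM in Control, 255 to 323 in LLC, 4.11 to 157 in Control + rFibcd1 and 20.6 to 315 in LLC + rFibcd1, 9 of 9 higher). Summed macrophage markers were at 149 to 266 TPM in Control, 358 to 443 in LLC, 99.7 to 422 in Control + rFibcd1 and 182 to 417 in LLC + rFibcd1, with 6 of 8 higher over all tumor-bearing mice. Of all genes, 38.8% were higher in that comparison, the share that stands beside the B cell and the macrophage counts. The part of these cell markers in the differences below was not tested. The median of all 13305 genes tested was 0.13 higher on the log2 scale in tumor-bearing mice, and 0.16 higher in LLC against Control. Member differences over all tumor-bearing mice are therefore also given relative to that median. They were -0.31 for Lrp4, -0.05 for Chrna1, -0.18 for Chrnb1, 0.03 for Chrne and -0.14 for Rapsn, and those of the other tested members follow below. In whole-muscle RNA, fewer cells of a type and less RNA per cell cannot be told apart.

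In Control mice the 10 genes covered a wide range of levels in TPM, a scale that corrects for transcript length. Rapsn was the most abundant (26.2 ± 1.25 TPM, SD, n = 5), followed by Chrnb1 (21.7 ± 2.59), Dok7 (12.9 ± 1.74), Chrne (7.73 ± 0.744), Chrna1 (7.41 ± 0.501), Lrp4 (5.46 ± 0.333), Chrnd (4.32 ± 0.388), Musk (3.52 ± 0.841), Ncam1 (1.71 ± 0.218) and Chrng (0.0832 ± 0.050). Chrne overlapped its neighbor Chrna1, and Chrnd overlapped Musk, mouse by mouse, while the other neighbors in this order did not. In LLC mice the order differed for 3 pairs of neighbors, each with overlapping values: Chrna1 (7.43 ± 0.895 TPM, n = 3) stood level with and just above Chrne (7.42 ± 1.2), Ncam1 (2.40 ± 0.300) above Musk (2.25 ± 0.0769), and Chrnd (4.79 ± 0.539) above Lrp4 (4.46 ± 0.447).

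**Figure D1:**
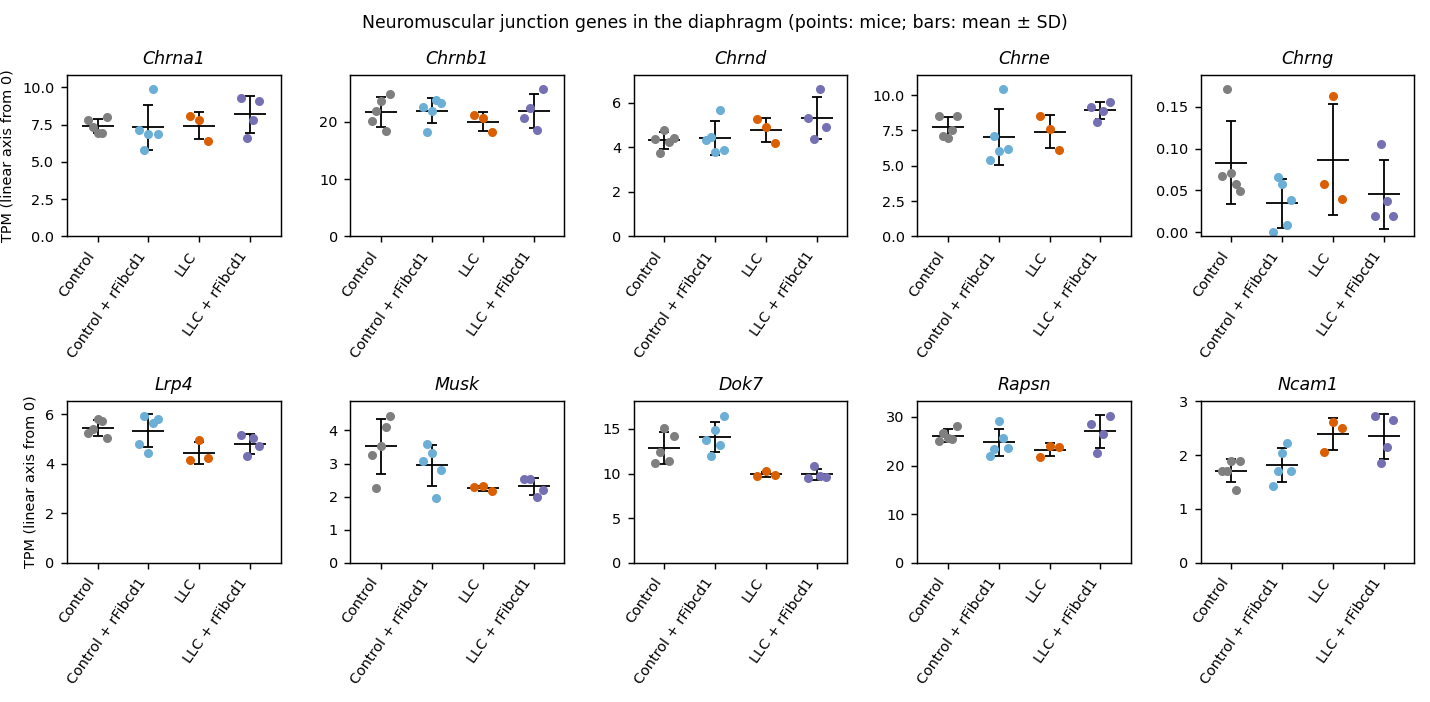
TPM of the 10 genes in each mouse, on linear axes, by group; each point is 1 mouse and the bars are the group mean ± SD. Dok7 lies at 9.47 to 10.9 TPM in all 7 tumor-bearing mice and at 11.1 to 16.5 TPM in all 10 tumor-free mice, while Chrng stays at or below 0.171 TPM in every mouse.

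Tumor-bearing mice expressed less of all 3 genes of the agrin receptor complex in TPM as deposited, although relative to the myofiber structure markers Dok7 alone kept the call. Dok7, Musk and Lrp4 fell in the 7 tumor-bearing against the 10 tumor-free mice, Ncam1 rose, and the other 5 tested genes did not pass the threshold (limma, adjusted p under 0.05). The 4 of 9 called stand beside 44.8% of all genes tested, so that the number of calls is near the background. By direction, 3 of 9 were lower beside 5.98% of all genes, and 1 of 9 was higher beside 38.8%. The median difference of the 9 genes was -0.01 (log2), below the 0.13 of all genes.

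Dok7 is the cytoplasmic adaptor that binds Musk and switches on its kinase; the gene lies on the plus strand at chr5:35056766-35087839 (GRCm38). Its level was 11.1, 12.4, 15.1, 11.4 and 14.2 TPM in Control and 13.8, 12, 14.9, 13.2 and 16.5 TPM in Control + rFibcd1. It was 9.71, 10.2 and 9.83 TPM in LLC and 9.47, 10.9, 9.76 and 9.58 TPM in LLC + rFibcd1. Every tumor-bearing mouse was thus below every tumor-free mouse, a full separation toward lower values that 0.526% of all genes showed. Dok7 fell by 24.1% on the scale of TPM + 1 (log2 fold change -0.40 ± 0.07 SE, adjusted p = 0.00126, limma), or -0.53 relative to the median of all genes. It fell both without rFibcd1 (-0.34 ± 0.10, adjusted p = 0.0210 by limma, LLC against Control) and with it (-0.46 ± 0.09, adjusted p = 0.00870 by limma, LLC + rFibcd1 against Control + rFibcd1), 2 comparisons that share no mouse and whose groups did not overlap, as for 6.67% and 1.48% of all genes in the same direction. The spread was also smaller in tumor-bearing mice (SD 0.273 TPM in LLC and 0.639 in LLC + rFibcd1) than in Control (SD 1.74), although no test of the spread was run. Leaving out LLC replicate 1 or replicate 3 ended the call in LLC against Control, where the value ranged from -0.38 to -0.28 over all 17 such fits, whereas no single mouse ended the call over all tumor-bearing mice (-0.42 to -0.37).

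Musk is the receptor tyrosine kinase of the postsynaptic membrane, on the plus strand at chr4:58285960-58374303. Its level was 3.26, 2.27, 3.52, 4.09 and 4.45 TPM in Control and 3.09, 3.58, 3.33, 1.96 and 2.80 TPM in Control + rFibcd1. It was 2.28, 2.31 and 2.17 TPM in LLC and 2.52, 2.54, 1.99 and 2.19 TPM in LLC + rFibcd1. The groups overlapped through Control replicate 2 and Control + rFibcd1 replicate 4, the 2 lowest tumor-free mice, whereas the other 8 tumor-free mice lay above all 7 tumor-bearing mice. On the scale of TPM + 1, Musk fell by 21.3% (log2 fold change -0.35 ± 0.10, adjusted p = 0.0152, limma), or -0.48 relative to all genes. In LLC against Control it fell by 26.9% on that scale (-0.45 ± 0.15, adjusted p = 0.0338, limma). Mean Musk was 3.52 TPM in Control and 2.25 in LLC. With rFibcd1 the difference was -0.24 (95% interval -0.54 to 0.06, adjusted p = 0.257, limma). Each library held 194 to 405 reads of Musk, the fewest of the 3 genes. The LLC against Control call was lost without Control replicate 3, 4 or 5 or any of the 3 LLC mice (range -0.56 to -0.38), and no single mouse ended the call over all tumor-bearing mice. That call was lost with the replicate number as a factor (replicate block) and with the mean B cell marker level as a covariate. It was also lost relative to the myofiber markers and under a 1.5-fold cutoff.

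Lrp4, the low-density lipoprotein receptor-related protein that binds agrin, lies on the plus strand at chr2:91457511-91513779. It was at 5.25, 5.41, 5.83, 5.75 and 5.04 TPM in Control and 4.82, 5.96, 4.44, 5.65 and 5.81 TPM in Control + rFibcd1. In LLC mice it was at 4.16, 4.97 and 4.24 TPM, and in LLC + rFibcd1 mice at 5.18, 4.30, 5.04 and 4.72 TPM. All 3 LLC mice were below all 5 Control mice, as for 6.67% of all genes, but the rFibcd1 groups overlapped. On the scale of TPM + 1, Lrp4 fell by 11.5% over all tumor-bearing mice (-0.18 ± 0.06, adjusted p = 0.0246, limma) and by 15.5% in LLC against Control (-0.24 ± 0.09, adjusted p = 0.0404, limma). With rFibcd1 the difference was -0.12 (95% interval -0.29 to 0.05). Lrp4 had the smallest of the 3 decreases, and the least stable one over all tumor-bearing mice. That call was lost without LLC replicate 1 or 3 (range -0.20 to -0.15). It was also lost with the replicate block, with the B cell covariate, relative to the myofiber markers and under the 1.5-fold cutoff, as for Musk. The call in LLC against Control was lost without any of 6 mice (LLC replicate 1 or 3, or Control replicate 1, 2, 3 or 4), as many as for Musk.

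The promoters of Dok7 and Musk are given because these genes had the larger decreases. Each line holds the 250 bases before a RefSeq start (GRCm38.p6), read 5′ to 3′ on the strand of the gene, with E-boxes (CANNTG, the motif bound by Myod1, Myog and their relatives) and N-boxes (CCGGAA, the motif bound by the synaptic factor Gabpa and its relatives) in capitals. Both strands were searched; CANNTG reads as CANNTG on either strand, so that each E-box was counted once. For Dok7 (chr5:35056516-35056765, plus strand) and Musk (chr4:58285712-58285961, plus strand) they read:
Dok7: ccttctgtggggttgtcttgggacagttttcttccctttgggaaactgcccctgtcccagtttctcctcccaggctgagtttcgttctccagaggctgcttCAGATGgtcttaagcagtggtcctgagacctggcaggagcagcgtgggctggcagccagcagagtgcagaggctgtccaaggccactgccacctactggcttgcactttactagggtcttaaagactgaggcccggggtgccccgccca
Musk: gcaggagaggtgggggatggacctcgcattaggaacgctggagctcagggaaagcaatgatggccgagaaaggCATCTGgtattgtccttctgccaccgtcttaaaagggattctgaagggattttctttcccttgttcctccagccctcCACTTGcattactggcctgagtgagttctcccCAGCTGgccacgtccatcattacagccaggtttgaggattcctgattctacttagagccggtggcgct
The Dok7 stretch held 1 E-box and that of Musk held 3, and neither held an N-box. A second RefSeq start of Dok7 (chr5:35056822-35057071) had neither motif. Of 32851 mouse promoters of the same length, 66.2% held an E-box and 12% an N-box, so that these matches are common and describe the letters only.

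Among the receptor subunits, none of Chrna1, Chrnb1, Chrnd and Chrne passed the threshold in any of the 7 comparisons in TPM as deposited (limma). Nor did any pass in the Dunn test, adjusted over all genes. Relative to the myofiber markers, Chrna1, Chrnd and Chrne passed toward higher values over all tumor-bearing mice. That scaling called 70.1% of all genes, 98.9% of them higher, so that these calls are near the background. Whether the subunits differed from the kinase complex was not tested. An unadjusted p under 0.05 was reached by Chrnd in tumor-bearing against tumor-free mice and in LLC + rFibcd1 against Control, and by Chrne in LLC + rFibcd1 against Control + rFibcd1. Chrna1, the acetylcholine-binding subunit (minus strand, chr2:73563215-73580338), was at 7.41 ± 0.501 TPM in Control, 7.32 ± 1.53 in Control + rFibcd1, 7.43 ± 0.895 in LLC and 8.20 ± 1.24 in LLC + rFibcd1. Its difference with the tumor was 0.09 (95% interval -0.10 to 0.27). Chrnb1 (minus strand, chr11:69784036-69795943), the β subunit through which the receptor is held to Rapsn, ranged from 18.2 to 25.7 TPM over all mice, with group means of 20.04 to 21.9 TPM and a tumor difference of -0.05 (95% interval -0.21 to 0.11). Both intervals exclude a change as large as that of Dok7.

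Chrnd and Chrne, the δ and ε subunits, had positive differences over all tumor-bearing mice that did not pass the threshold and that went below 0 with quantile normalization (-0.04 and -0.05). Chrnd (plus strand, chr1:87190607-87200070) was at 4.39, 3.73, 4.80, 4.26 and 4.42 TPM in Control and at 5.25, 4.91 and 4.20 TPM in LLC. It was at 4.33, 4.45, 3.79, 5.67 and 3.90 TPM in Control + rFibcd1 and at 5.31, 4.39, 6.61 and 4.92 TPM in LLC + rFibcd1. The groups overlapped in both comparisons, and the difference over all tumor-bearing mice was 0.18 (95% interval 0.01 to 0.35, adjusted p = 0.0840, limma), or 0.05 relative to the median of all genes. Chrne (minus strand, chr11:70614883-70619216) was at 8.50, 7.11, 6.97, 7.55 and 8.52 TPM in Control and 8.51, 7.62 and 6.14 TPM in LLC. It was at 5.39, 7.11, 6.02, 10.4 and 6.20 TPM in Control + rFibcd1 and 9.18, 8.12, 8.86 and 9.51 TPM in LLC + rFibcd1. All 4 LLC + rFibcd1 mice were above 4 of the 5 Control + rFibcd1 mice, and replicate 4 of the latter was above them all. The difference between these groups was 0.34 (95% interval 0.04 to 0.63, adjusted p = 0.128, limma). Without that replicate both Chrnd and Chrne passed the threshold over all tumor-bearing mice, and Chrne also passed it in LLC + rFibcd1 against Control + rFibcd1.

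Chrng (plus strand, chr1:87204657-87212694), whose return marks loss of the nerve, was close to absent in every group. Its estimated reads were 7, 18, 7, 6 and 5 in Control, 0, 7, 6, 1 and 4 in Control + rFibcd1, 6, 17 and 4 in LLC, and 2, 11, 4 and 2 in LLC + rFibcd1. The highest and lowest mice of all groups overlapped, and tumor-bearing mice were not set apart. The mouse at 0 reads allows a level of up to 0.0299 TPM, taken at 3 reads, and this limit covers counting error only. Chrng made up 0 to 2.35% of the summed TPM of Chrng and Chrne, with medians of 0.781% in Control, 0.623% in Control + rFibcd1, 0.674% in LLC and 0.311% in LLC + rFibcd1. The log2 ratio of Chrng to Chrne, both taken from the same library with 0.01 TPM added to each, was -7.64 ± 1.34 (SD, n = 5) in Control + rFibcd1 and -7.59 ± 1.04 (n = 4) in LLC + rFibcd1. In the mock-injected groups it was -6.50 ± 0.72 (n = 5) in Control and -6.46 ± 0.87 (n = 3) in LLC. The difference of these means, 0.03, had p = 0.964 in a two-sided exact permutation test, whose smallest possible p is 0.0357. Over all 7 tumor-bearing and 10 tumor-free mice the difference was -0.04 (p = 0.939, two-sided permutation test). Of 6 such comparisons of the ratio the lowest p was 0.111 (adjusted p = 0.457, exact permutation test, LLC + rFibcd1 against Control). For the TPM of Chrng itself the lowest was p = 0.0635 (adjusted p = 0.381, exact permutation test, Control + rFibcd1 against Control, 0.0343 against 0.0832 TPM). With 0 to 18 reads per mouse only a large increase could have been seen.

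**Figure D2:**
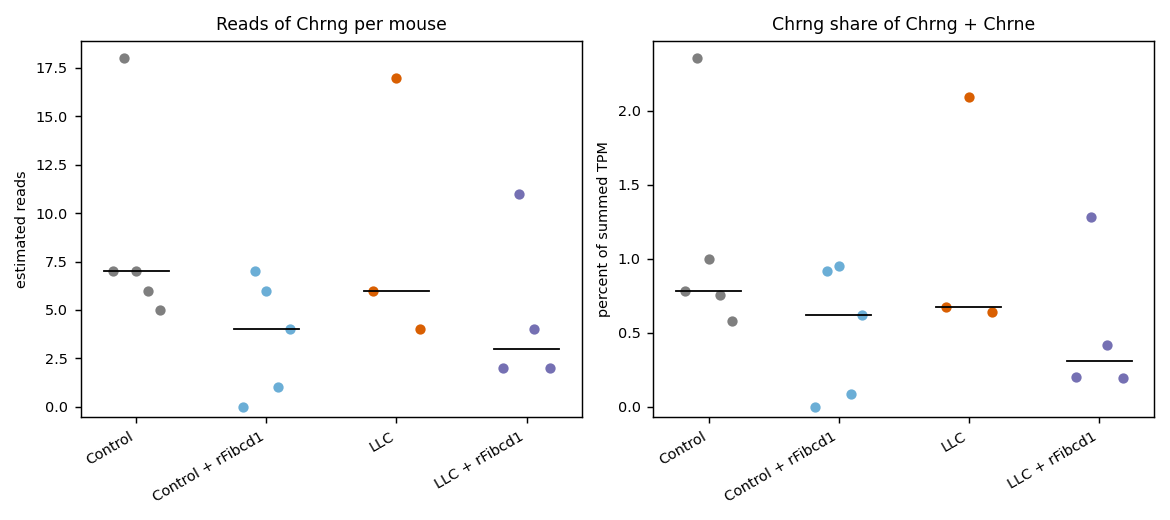
Estimated Chrng reads (left, count) and Chrng as a percent of summed Chrng and Chrne TPM (right) in each mouse; points are mice and lines are group medians. No group rises above the others: the highest mouse is in Control (18 reads, 2.35%), followed by an LLC mouse at 17 reads (2.09%).

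The promoters of the 2 exchanged subunits are shown because this switch is the best known transcriptional mark of innervation. They are given as above (GRCm38.p6; Chrng, chr1:87205561-87205810, plus strand; Chrne, chr11:70619195-70619444, minus strand):
Chrng: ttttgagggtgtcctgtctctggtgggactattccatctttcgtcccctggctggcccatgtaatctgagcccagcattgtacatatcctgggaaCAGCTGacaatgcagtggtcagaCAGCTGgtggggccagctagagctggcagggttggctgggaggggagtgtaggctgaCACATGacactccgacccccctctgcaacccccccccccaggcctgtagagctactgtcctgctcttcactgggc
Chrne: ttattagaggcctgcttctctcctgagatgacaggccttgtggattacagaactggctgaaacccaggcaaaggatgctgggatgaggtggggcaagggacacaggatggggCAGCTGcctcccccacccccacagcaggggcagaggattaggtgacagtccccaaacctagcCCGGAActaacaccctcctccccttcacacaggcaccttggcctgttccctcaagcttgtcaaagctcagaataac
The adult subunit had the only N-box among the members with an entry, 76 bases before the start, and 1 E-box (CAGCTG, 138 bases before it). The fetal subunit had 3 E-boxes and no N-box, and 2 of the 3 were CAGCTG, 155 and 132 bases before the start, a form that 13% of all promoters held at least once. The RefSeq start of Chrng lies inside the span that GENCODE gives to the gene. Chrna1 and Chrnb1 had 3 E-boxes each and no N-box. Entries were matched for 6 of the 10 members; Chrnd, Rapsn, Lrp4 and Ncam1 had none.

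Rapsn (plus strand, chr2:91035620-91045729), the scaffold that clusters receptors, was the most abundant member and was not called in any of the 7 comparisons in TPM as deposited. It was at 25.1, 26.7, 25.6, 25.4 and 28.1 TPM in Control and 21.8, 24.1 and 23.9 TPM in LLC. It was at 21.9, 23.4, 29.1, 25.7 and 23.7 TPM in Control + rFibcd1 and 28.7, 22.6, 26.6 and 30.3 TPM in LLC + rFibcd1. The 3 LLC mice were below all 5 Control mice, as for 6.67% of all genes, without passing the test (-0.16, 95% interval -0.36 to 0.03, adjusted p = 0.164, limma). It did pass in this comparison with quantile normalization (-0.35, adjusted p = 0.0474, limma) and when only the 2 groups compared entered the fit (-0.16, adjusted p = 0.0466, limma). The rFibcd1 groups overlapped, with a difference of 0.12 (95% interval -0.06 to 0.30). The difference between these differences was 0.28 (unadjusted p = 0.0364, adjusted p = 0.526, limma). A non-coding gene, Gm13778, overlaps Rapsn on the other strand at 0.179 to 0.784 TPM, and whether reads were counted by strand is not given in the sources used here.

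Ncam1 (minus strand, chr9:49502136-49798925) was the only member that rose in TPM as deposited, and it lost its call over all tumor-bearing mice with median-ratio scaling and with quantile normalization. This adhesion molecule covers the whole fiber in developing and denervated muscle and is otherwise kept at the synapse, and Schwann cells and satellite cells, the muscle stem cells, also make it. It was at 1.71, 1.71, 1.90, 1.36 and 1.88 TPM in Control and 1.42, 1.71, 2.04, 2.23 and 1.71 TPM in Control + rFibcd1. In LLC mice it was at 2.06, 2.62 and 2.51 TPM, and in LLC + rFibcd1 mice at 2.74, 1.86, 2.15 and 2.65 TPM. All LLC mice were above all Control mice, a separation toward higher values shared by 33.6% of all genes, whereas the rFibcd1 groups overlapped. Mean Ncam1 was 1.71 TPM in Control and 2.40 in LLC. On the scale of TPM + 1, which understates changes of low genes, Ncam1 rose by 21.6% over all tumor-bearing mice (0.28 ± 0.08, adjusted p = 0.00962, limma), or 0.15 relative to the median of all genes, and by 25.2% in LLC against Control (0.32 ± 0.11, adjusted p = 0.0372, limma). The latter call was lost without Control replicate 1 or 4 or LLC replicate 2 or 3 (range 0.28 to 0.40). It was also lost without mitochondrially encoded genes, with median-ratio scaling, with quantile normalization (0.00), without a filter on low values, with the B cell covariate, with the replicate block, in the Dunn test and under the 1.5-fold cutoff. Schwann cell markers summed to 56.3 to 75.0 TPM in Control, 45.2 to 95.6 in Control + rFibcd1, 69.8 to 92.5 in LLC and 53.9 to 107 in LLC + rFibcd1, and 2 of 10 tested (Ngfr and Mbp) rose with the tumor, beside 38.8% of all genes. Satellite cell markers summed to 40.5 to 50.8 TPM in Control, 33.7 to 46.8 in Control + rFibcd1, 45.8 to 59.2 in LLC and 45.9 to 54.8 in LLC + rFibcd1, and 1 of 7 tested rose (Vcam1, which inflamed vessels make as well), beside the same 38.8%. None of the markers of either list was at 0 in every mouse, and their part in the Ncam1 difference was not tested.

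In the comparisons of single groups the members moved as follows. Between LLC and Control, 4 of 9 were called (Dok7, Musk and Lrp4 lower, Ncam1 higher) beside 35.8% of all genes, with 3 of 9 lower beside 6.02% and 1 of 9 higher beside 29.7%, and the median of the 9 was -0.11 against 0.16 for all genes. The Dunn test, here adjusted over all genes, called 0 of 9. Between LLC + rFibcd1 and Control + rFibcd1, 1 of 9 was called (Dok7) beside 8.06% of all genes and 1.04% in its direction, with a median of 0.12 against 0.11, and the Dunn test again called 0 of 9. Between LLC + rFibcd1 and Control, 0 of 9 were called by limma beside 3.08% of all genes, with 4 at an unadjusted p under 0.05 (19.9% of all genes) and 0 by the Dunn test. Dok7 came closest there, at -0.34 (adjusted p = 0.0606, limma), and was lower without overlap, as were 2.92% of all genes. The first 2 of these comparisons share no mouse, the third shares a group with each of them, and all draw on mice of the comparison of all tumor-bearing mice.

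rFibcd1 itself was not accompanied by a detectable change in any of the 9 genes tested by limma. Chrng, tested apart, had a lower mean with rFibcd1 in both settings without passing. It was at 0.0451 TPM in LLC + rFibcd1 against 0.0868 in LLC (p = 0.343, exact permutation test). In Control + rFibcd1 it was at 0.0343 TPM against 0.0832 in Control (p = 0.0635, exact permutation test). All rFibcd1 mice against all mock-injected mice was not tested for Chrng. Between LLC + rFibcd1 and LLC, 0 of 9 were called by limma beside 0.113% of all genes, with 0 at an unadjusted p under 0.05 (22.7% of all genes) and 0 by the Dunn test. The differences ran from -0.03 (Ncam1, 95% interval -0.28 to 0.23) to 0.24 (Chrne, -0.09 to 0.58), and that of Dok7 was 0.00 (-0.23 to 0.22). Between Control + rFibcd1 and Control, 0 of 9 were called by limma beside 0.0% of all genes, again with 0 at an unadjusted p under 0.05 (4.39% of all genes) and 0 by the Dunn test, and the differences ran from -0.19 (Musk, -0.47 to 0.10) to 0.12 (Dok7, -0.06 to 0.31). For the interaction of tumor and rFibcd1, 0 of 9 were called by limma beside 0.0% of all genes, with 1 at an unadjusted p under 0.05 (Rapsn, beside 8.58% of all genes). A call in LLC against Control without one in LLC + rFibcd1 against Control + rFibcd1, as for Musk, Lrp4 and Ncam1, is therefore not shown to be a difference between the treatments. The interaction was 0.21 (-0.23 to 0.65) for Musk, 0.12 (-0.13 to 0.37) for Lrp4 and -0.08 (-0.41 to 0.25) for Ncam1.

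**Figure D3:**
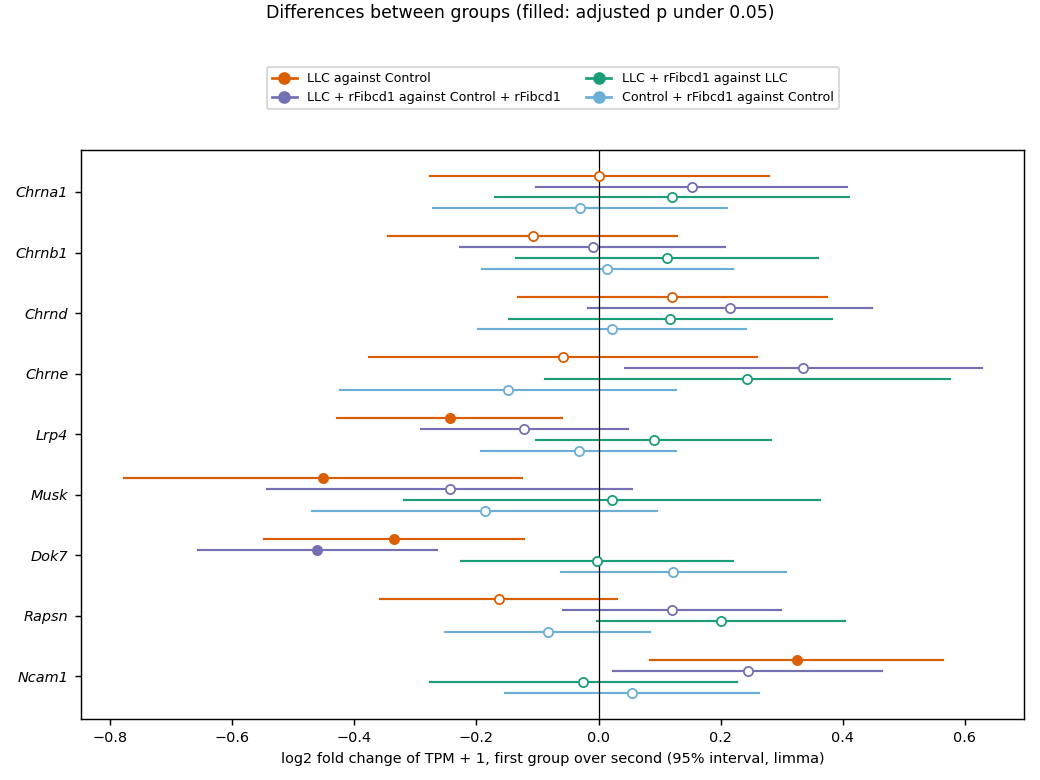
Log2 fold changes of TPM + 1 with 95% intervals (limma) for the 9 tested genes in 4 comparisons; filled points passed an adjusted p of 0.05. Filled points are seen for Lrp4, Musk, Dok7 and Ncam1 in LLC against Control and for Dok7 in LLC + rFibcd1 against Control + rFibcd1, and none in the 2 comparisons of rFibcd1 with mock injection.

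The calls depended on what the libraries were scaled to. Dok7 kept its call over all tumor-bearing mice under every scaling tried, at -0.49 without mitochondrially encoded genes, -0.54 with median-ratio scaling, -0.58 with quantile normalization and -0.23 (adjusted p = 0.00794, limma) when each library was scaled to its myofiber structure markers, a scaling added after the data were seen. Relative to those markers, Musk was at -0.22 (adjusted p = 0.0796, limma) and Lrp4 at -0.03 (adjusted p = 0.691, limma), while Chrna1 (0.24), Chrnd (0.32), Chrne (0.31), Rapsn (0.16) and Ncam1 (0.40) rose, with adjusted p values of 0.0121, 0.00379, 0.0111, 0.0115 and 0.000454 (limma). Under this scaling 70.1% of all genes passed, 98.9% of them toward higher values, and the median of all genes was 0.28. Dok7 in LLC against Control was then at -0.13 (adjusted p = 0.288, limma). Ncam1 lost its call over all tumor-bearing mice with median-ratio scaling (0.18, adjusted p = 0.150, limma) and with quantile normalization (0.05, adjusted p = 0.786, limma). With the mean B cell marker level as a covariate, Dok7 (-0.37, adjusted p = 0.0317, limma) and Ncam1 (0.43, adjusted p = 0.0118, limma) passed over all tumor-bearing mice, whereas Musk (-0.24, adjusted p = 0.276) and Lrp4 (-0.16, adjusted p = 0.212) did not (limma).

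**Figure D4:**
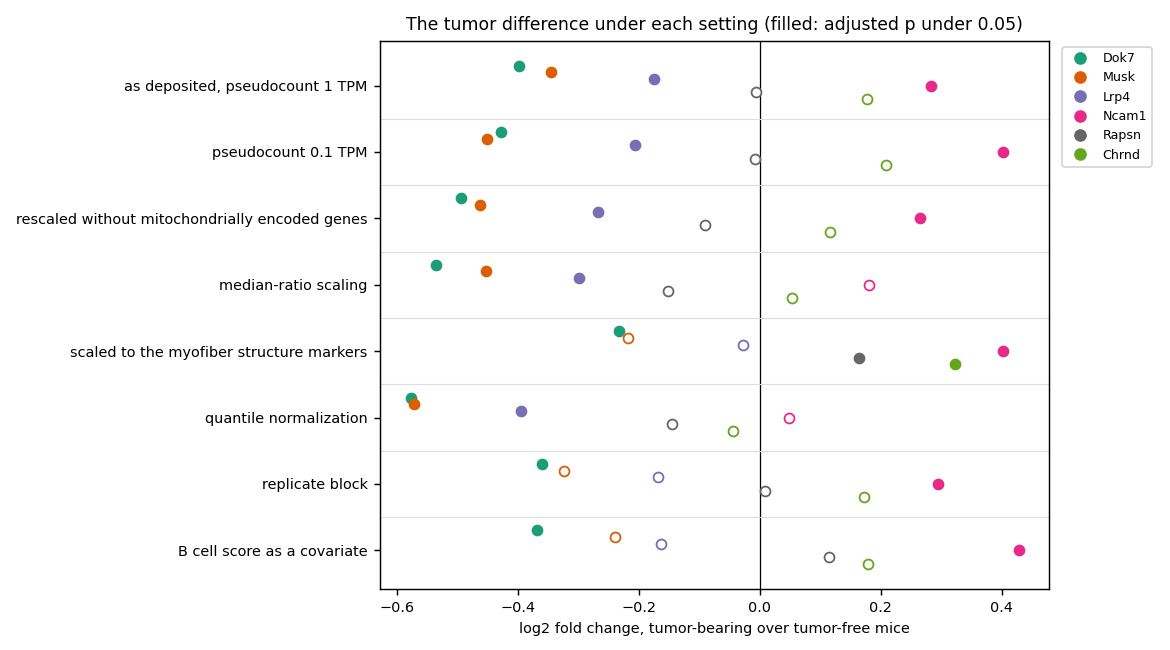
Log2 fold change of 6 genes in tumor-bearing against tumor-free mice under 8 ways of processing the table; filled points passed an adjusted p of 0.05 (limma). Dok7 is filled in every line, from -0.58 to -0.23, whereas Rapsn changes side with the scaling, from -0.15 to 0.16.

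Among 32 other genes of junction assembly and synaptic transcription, 29 were tested, and over all tumor-bearing mice 10 rose and 2 fell, beside 38.8% and 5.98% of all genes. The median of the list was 0.09 against 0.13 for all genes. Genes that rose included Colq (0.42, adjusted p = 0.00306), the collagen tail that anchors acetylcholinesterase in the cleft, Syne1 (0.34, adjusted p = 0.000532), a nuclear envelope protein that holds nuclei beneath the synapse, Lamb2 (0.21, adjusted p = 0.00259), a laminin chain of the synaptic basal lamina, and Prkar1a (0.23, adjusted p = 0.000516), a regulatory subunit of protein kinase A (limma). Syne1 and Prkar1a passed both without and with rFibcd1 in TPM as deposited. In LLC against Control, 0 of 29 passed toward higher values without mitochondrially encoded genes, with median-ratio scaling or with quantile normalization. There 29.7%, 29.6% and 35.2% of all genes passed in either direction. Colq was at 0.09 in LLC against Control (adjusted p = 0.611, limma) and rose by 0.71 in LLC + rFibcd1 against Control + rFibcd1 (adjusted p = 0.00363, limma). Lamb2 was likewise at 0.10 (adjusted p = 0.227) and rose by 0.30 (adjusted p = 0.00617, limma). The interaction did not pass for Colq (0.63, adjusted p = 0.208) or Lamb2 (0.21, adjusted p = 0.454, limma). Gabpb1 (0.19, adjusted p = 0.0136) and Etv5 (0.20, adjusted p = 0.0173), 2 of the factors of the ETS system on this list, rose as well (limma), by 0.06 and 0.07 relative to the median of all genes. Gabpa (-0.03, adjusted p = 0.781) and Etv4 (0.17, adjusted p = 0.0598), of the same system, did not pass (limma). Scn4a, the muscle sodium channel (-0.16, adjusted p = 0.00778), and Dtna, α-dystrobrevin (-0.18, adjusted p = 0.0102), fell (limma). Agrin itself (Agrn) was at 0.18 (95% interval 0.01 to 0.35, adjusted p = 0.0763, limma), and acetylcholinesterase (Ache) at 0.00 (-0.18 to 0.18). The direction of this list turned with the scaling: 2 were higher and 7 lower with median-ratio scaling, and 15 higher and 0 lower relative to the myofiber markers. The same 2 scalings called 36.2% and 70.1% of all genes, of which 52.8% and 98.9% were higher. In LLC + rFibcd1 against LLC, 0 of 29 passed in limma beside 0.113% of all genes, with 11 at an unadjusted p under 0.05 beside 22.7%.

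The 20 genes known to respond to denervation were divided. Of these, 14 were tested, and over all tumor-bearing mice 4 rose and 2 fell, beside 38.8% and 5.98% of all genes, whereas in LLC against Control 1 rose and 4 fell, beside 29.7% and 6.02%. Runx1, a transcription factor induced when the nerve is cut, rose in both (0.31, adjusted p = 0.00555, and 0.36, adjusted p = 0.0223, limma), from 0.996 ± 0.187 TPM in Control to 1.56 ± 0.286 in LLC. Its call in LLC against Control was lost with median-ratio scaling and with quantile normalization. There 0 of 14 passed toward higher values, beside 29.6% and 35.2% of all genes that passed in either direction. Dach2, a repressor of Myog that denervation lowers, fell in both (-0.37, adjusted p = 0.0119, and -0.54, adjusted p = 0.0189, limma). Myog, the factor that drives receptor genes through E-boxes, was at 5.26 ± 1.03 TPM in Control and 5.05 ± 0.162 in LLC (0.07 over all tumor-bearing mice, 95% interval -0.13 to 0.28). Gadd45a, which denervation induces, fell (-0.23, adjusted p = 0.0299, limma). The embryonic and neonatal myosins Myh3 and Myh8, which reappear in denervated and regenerating fibers, lay below the filter in every mouse and were not tested. Myh3 was at 0.0330 to 0.0591 TPM in Control, 0.0342 to 0.112 in Control + rFibcd1, 0.0860 to 0.704 in LLC and 0.0961 to 0.220 in LLC + rFibcd1, so that every LLC mouse was above every Control mouse, a separation toward higher values that 33.6% of the genes tested showed. Myh8 was at 0.105 to 0.167 TPM in Control, 0.124 to 0.271 in Control + rFibcd1, 0.150 to 0.596 in LLC and 0.142 to 0.217 in LLC + rFibcd1, with overlap. Both were picked after their values were seen.

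The ubiquitin ligases Fbxo32 (atrogin-1) and Trim63 (MuRF1), which drive protein loss in atrophy, and the cell cycle inhibitor Cdkn1a rose over all tumor-bearing mice (0.34, 0.43 and 0.90, with adjusted p values of 0.0287, 0.0390 and 0.00811, limma). None of the 3 passed in LLC against Control (-0.04, -0.10 and 0.37, adjusted p = 0.857, 0.762 and 0.407, limma), while all 3 rose in LLC + rFibcd1 against Control + rFibcd1 (0.65, 0.86 and 1.29, adjusted p = 0.0244, 0.0272 and 0.0233, limma). The interaction did not pass for any of them (adjusted p = 0.331, 0.319 and 0.618, limma). In LLC + rFibcd1 against Control + rFibcd1, 4 of 14 genes of the list passed toward higher values as deposited. This count became 2 without mitochondrially encoded genes and 1 with median-ratio scaling and with quantile normalization, so not all 3 kept the call. Of all genes 8.06%, 4.37%, 3.92% and 3.51% passed in either direction. Trim63 was at 80.2 to 119 TPM in Control, 65.1 to 134 in Control + rFibcd1, 75.2 to 105 in LLC and 116 to 198 in LLC + rFibcd1. Sln, sarcolipin, an inhibitor of the calcium pump, was the only gene of these lists called between LLC + rFibcd1 and LLC (0.99 ± 0.16, adjusted p = 0.0334, limma), and this call was lost without mitochondrially encoded genes, with median-ratio scaling and relative to the myofiber markers, where 0 of the list passed. Sln was at 567 to 897 TPM in LLC and 1060 to 1538 in LLC + rFibcd1, without overlap, as for 5.26% of all genes toward higher values, and at 822 to 1068 in Control and 651 to 883 in Control + rFibcd1. It fell in LLC against Control (-0.46, adjusted p = 0.0344, limma), as did Myod1, the myogenic factor (-0.39, adjusted p = 0.0360, limma). The list gave 2 higher and 2 lower genes over all tumor-bearing mice with median-ratio scaling, and 8 higher and 1 lower relative to the myofiber markers. Of all genes, 36.2% and 70.1% were called under these scalings, with 52.8% and 98.9% of the calls toward higher values.

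**Figure D5:**
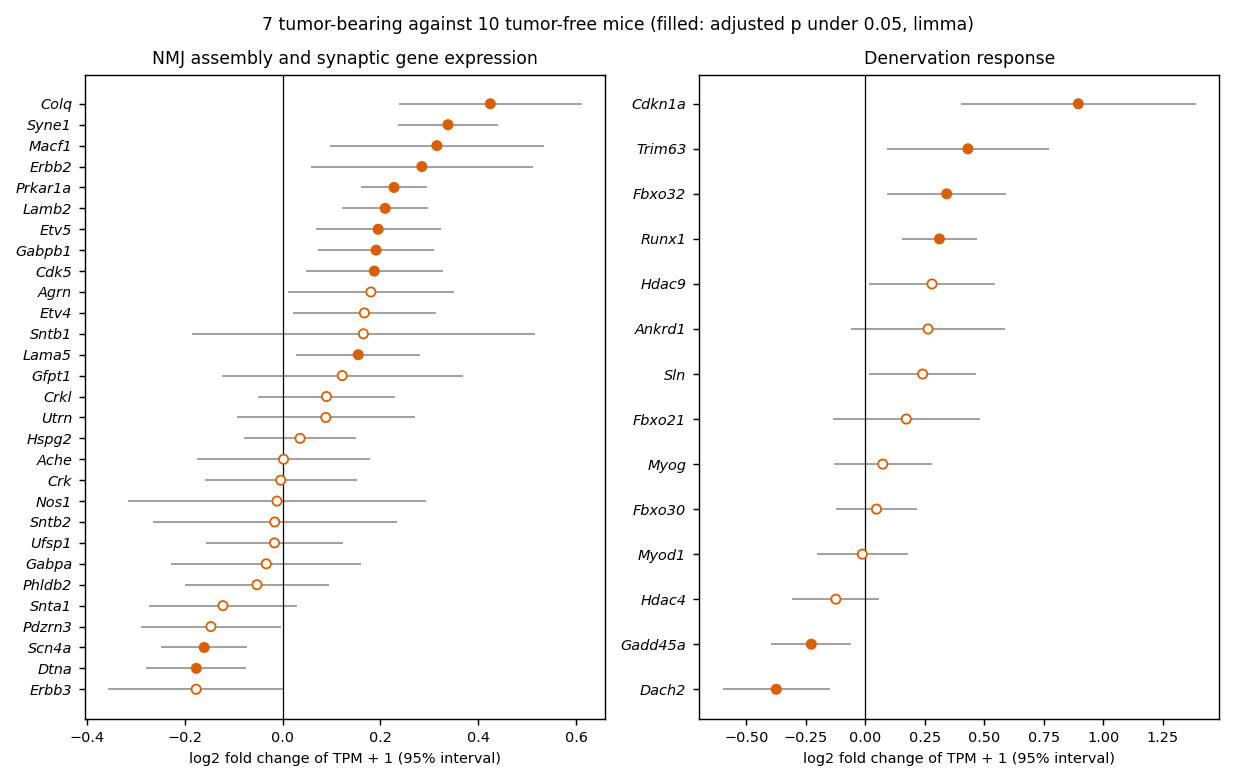
Log2 fold changes of TPM + 1 with 95% intervals in 7 tumor-bearing against 10 tumor-free mice for the 29 junction genes (left) and the 14 denervation genes (right) tested; filled points passed an adjusted p of 0.05 (limma). Colq stands highest on the left (0.42) and Cdkn1a on the right (0.90), and Dach2 is the lowest on the right (-0.37).

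Of 11 nicotinic subunits that belong to neuronal receptors, 2 passed the filter on low values, and both fell in LLC against Control, where 6.02% of all genes did. Chrna4 went from 1.34 ± 0.334 TPM in Control to 0.619 ± 0.0953 in LLC (-0.52, adjusted p = 0.0179, limma), and Chrna2 from 4.37 ± 0.528 to 2.89 ± 0.323 (-0.46, adjusted p = 0.0143, limma). Both also fell over all tumor-bearing mice (-0.40, adjusted p = 0.00729, and -0.25, adjusted p = 0.0221, limma), beside 5.98% of all genes, with the exception that relative to the myofiber markers 1 of the 2 passed. Neither passed in LLC + rFibcd1 against Control + rFibcd1 (-0.28, adjusted p = 0.193, and -0.06, adjusted p = 0.719, limma) or in LLC + rFibcd1 against Control (-0.49, adjusted p = 0.0637, and -0.31, adjusted p = 0.145, limma).

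The genes whose levels followed the members most closely over the 17 mice are given as a description, since all points share the same tumor groups. For Dok7 these were 9430073C21Rik (Pearson r = 0.943 of log2 TPM + 1), Mylpf, a regulatory light chain of fast myosin (0.900), and Prr33 (0.897). Musk was closest to Mbnl2 (0.933), a splicing regulator, Zfp770 (0.922) and Atad1 (0.892). Lrp4 was closest to Fads6 (0.904), Klhl23 (0.835) and Pstk (0.832), and Ncam1 to Anapc5 (0.827), Ift81 (0.824) and P3h2 (0.817). Chrna1 was closest to Myl2 (0.789) and Tnnt1 (0.778), which encode slow-fiber myosin light chain and troponin T, and to Dupd1 (0.767). Chrne and Chrnd shared Lamtor1 (0.799 and 0.776), beside Eci1 (0.818) and Mrps26 (0.799) for Chrne and Gm11734 (0.754) and Atp2a2 (0.745), the slow-fiber calcium pump, for Chrnd. Chrnb1 was closest to Tmem242 (0.806), Vapb (0.787) and Tmed1 (0.779), and Rapsn to Tmem201 (0.836), Rab12 (0.827) and Pabpc4 (0.803).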

How the data were processed

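Diaphragm RNA of 17 mice was sequenced by the authors as paired reads, trimmed, aligned to the mouse genome (GRCm38, mm10) and deposited as TPM per gene, a unit that sums to the same total in each library. The library kit and sequencer differ between the sources used here, so that strandedness is not settled. Reads per library were recovered from the TPM steps with GENCODE exon lengths for 45084 of 47643 symbols, and 80.8% to 83.7% of low values lay within 0.02 of a whole read. Tests used limma 3.58.1 (R 4.3.3) on log2(TPM + 1) with a trended prior over the 13305 genes that reached 1 TPM in 3 or more mice, all 4 groups in 1 model (13 residual degrees of freedom), two-sided, with Benjamini-Hochberg adjustment over all genes. The study used Kruskal-Wallis and Dunn tests with a p under 0.05 and a fold cutoff, and names no adjustment. The Dunn test is kept here as an alternative with Benjamini-Hochberg adjustment over all genes, so its threshold differs from the study's. Fold changes understate those of low genes. Chrng, below the filter, was tested with exact permutation (scipy 1.17.1). The procedure was tested on simulated data. Members, lists and tests were chosen with earlier results of these data known. Named from each list were up to 8 genes with the lowest adjusted p in the main comparisons, with Fbxo32, Trim63, Myog, Runx1, Agrn and Ache in any case, and the 3 genes most like each member. Myh3, Myh8, Gabpa and Etv4 were picked after their values were seen. The labels call the mice of a group separate replicates.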

Additional observations from a re-analysis of the deposited data

Results flagged for a closer look

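Chrng in Control replicate 2 stood at 0.171 TPM (18 estimated reads, 95% Poisson interval 10.7 to 28.4), against 0.0497 to 0.0702 TPM in the other 4 Control mice, a gap above Dixon's 95% critical value for a group of 5. Groups of 4 or 5 mice were examined in 30 such tests over the 10 genes, of which 1 was exceeded, and chance alone exceeds about 1 in 20. In LLC mice, a group too small for this test, replicate 2 held 17 reads beside 6 and 4.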

How the results depend on the processing

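Of 657 member differences under other settings, 603 kept their side of the threshold, 39 lost and 14 gained the call, and 1 gained a call with the opposite sign (Rapsn over all tumor-bearing mice, 0.16 relative to the myofiber markers). Among the 603, 46 differences that were called under neither setting changed sign. Same-numbered mice did not deviate together (r from -0.46 to 0.49 over 22 pairs, median -0.06). With the replicate block, calls went from 4 to 0 in LLC against Control. Over all tumor-bearing mice they went from 4 to 2, where Musk and Lrp4 lost theirs. Calls in LLC against Control (4, of which 1 higher and 3 lower) became 3 without mitochondrially encoded genes and with median-ratio scaling (0 higher and 3 lower), 1 without a filter on low values, 2 with the myofiber scaling (Chrnd and Ncam1, both higher, with the 3 decreases lost), and 0 with the B cell covariate, the Dunn test, or an unadjusted p with a 1.5-fold cutoff. Calls in LLC + rFibcd1 against Control + rFibcd1 (1) became 5 with the myofiber scaling, 2 with the B cell covariate, and 0 with the Dunn test or the 1.5-fold cutoff. Calls in LLC + rFibcd1 against Control (0) became 1 without mitochondrially encoded genes, with the myofiber scaling and with the B cell covariate. Over all tumor-bearing mice (4, of which 1 higher and 3 lower) they became 6 with the myofiber scaling (5 higher and 1 lower), 3 with median-ratio scaling and with quantile normalization (all lower), 2 with the B cell covariate and 0 with the 1.5-fold cutoff. Of all genes, 35.8% were called in LLC against Control as deposited, 29.7% without mitochondrially encoded genes, 29.6% with median-ratio and 61.3% with myofiber scaling. In LLC + rFibcd1 against Control + rFibcd1 these shares were 8.06%, 4.37%, 3.92% and 26.2%. In LLC + rFibcd1 against Control they were 3.08%, 2.75%, 2.68% and 8.18%. Over all tumor-bearing mice they were 44.8%, 36.5%, 36.2% and 70.1%, and 38.7% with quantile normalization. The cause was not tested. Leaving out 1 mouse gave 0 to 4 calls in LLC against Control (0 without LLC replicate 3, 1 without LLC replicate 1 or Control replicate 4), 1 to 2 in LLC + rFibcd1 against Control + rFibcd1 (2 without Control + rFibcd1 replicate 4), 0 to 1 in LLC + rFibcd1 against Control (1 without Control replicate 2) and 3 to 6 over all tumor-bearing mice. The share of higher genes among all calls in LLC against Control was 83.2% as deposited, 62.9% without mitochondrially encoded genes, 52.7% with median-ratio scaling, 32.2% with quantile normalization and 99.4% with the myofiber scaling. Depth limits Chrng (0 to 18 reads a mouse).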
